A study of Rattus norvegicus with 18 samples.

Results

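Platelet-derived growth factor (PDGF) and vascular endothelial growth factor (VEGF) signalling was followed in rat liver through 10 genes chosen by symbol. They were the PDGF ligands Pdgfa, Pdgfb, Pdgfc and Pdgfd, the PDGF receptors Pdgfra and Pdgfrb, the VEGF ligand Vegfa, the VEGF receptors Flt1 and Kdr, and the coreceptor Nrp1. Each symbol had 1 row among the 32623 genes of the files, and 10 of 10 were among the 12904 genes that passed a filter on low counts and were tested. The levels came from whole liver of male Wistar rats, 6 control, 6 NASH and 6 NASH-CH animals, with 1 library per rat. Control rats ate standard chow and drank normal water for 12 weeks. NASH rats inhaled CCl4, a toxin activated in hepatocytes, and took phenobarbital by mouth for 6 weeks, and a high-fat and high-cholesterol diet (HFCD) followed for 4 weeks, 10 weeks in all. NASH-CH rats, the group with cirrhosis, were exposed to CCl4 and phenobarbital during all 24 weeks and to HFCD during the last 16. These schedules follow the study's methods, while the sample labels give 10 and 24 weeks of CCl4 and diet together without splitting them. Controls therefore carried neither phenobarbital nor CCl4 nor HFCD and differed from both models in duration, so that these agents and the time cannot be told apart here.

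PDGF ligands are secreted dimers that act on 2 receptor tyrosine kinases. PDGF-AA and PDGF-CC bind mainly the alpha receptor, while PDGF-BB and PDGF-DD activate the beta receptor, which in liver is best known as a driver of division and migration of hepatic stellate cells, the source of scar matrix. VEGF-A, made by hepatocytes and other cells, maintains the fenestrated sinusoidal endothelium through Kdr (VEGFR2), while Flt1 (VEGFR1) binds it more tightly, signals weakly and acts partly as a decoy.

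The stretches just upstream of the RefSeq start sites are shown for Pdgfc, Pdgfd and Pdgfra, the genes that rose in NASH-CH, so that their sequence can be read beside their levels. RefSeq sequences from GRCr8, while the counts were made on Rnor_6.0, were matched by symbol for 9 of the 10 genes, and no coordinate was carried over. Each line runs 5′ to 3′ on the gene's strand over 250 bases and ends at the base before the start site. Capitals mark matches, on either strand, to the GC box GGGCGG, the AP-1 site TGANTCA, the hypoxia response core ACGTG, the TATA box TATAAA and the CArG box.
Pdgfc (GRCr8 chr2:168614918-168615167, plus strand): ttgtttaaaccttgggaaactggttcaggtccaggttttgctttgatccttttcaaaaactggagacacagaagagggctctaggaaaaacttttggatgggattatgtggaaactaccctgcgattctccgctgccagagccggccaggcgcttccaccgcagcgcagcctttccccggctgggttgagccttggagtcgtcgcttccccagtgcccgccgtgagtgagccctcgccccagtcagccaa
Pdgfd (GRCr8 chr8:11773258-11773507, plus strand): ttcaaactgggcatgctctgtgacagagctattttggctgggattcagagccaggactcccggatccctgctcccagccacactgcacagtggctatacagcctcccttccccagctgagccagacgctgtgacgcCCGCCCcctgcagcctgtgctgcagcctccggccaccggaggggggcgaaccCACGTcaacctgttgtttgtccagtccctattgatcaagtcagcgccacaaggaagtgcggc
Pdgfra (GRCr8 chr14:33408517-33408766, minus strand): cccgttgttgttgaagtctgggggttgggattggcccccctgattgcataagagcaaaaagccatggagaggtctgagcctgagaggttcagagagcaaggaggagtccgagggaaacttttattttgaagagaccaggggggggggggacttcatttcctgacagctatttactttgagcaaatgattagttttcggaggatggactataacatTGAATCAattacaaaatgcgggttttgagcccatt
The Pdgfc window held none of these letters. In Pdgfd a GC box began at position -114 and a hypoxia response core at -62, both read on the opposite strand, with positions counted from the start site. In Pdgfra an AP-1 site, whose letters match on both strands, began at -35. Among the 33469 RefSeq windows of the same length, 30.5% held the GC box, 6.34% the AP-1 site, 16.6% the hypoxia response core, 12.9% the TATA box and 1.5% the CArG box. A match describes letters only, and overlapping matches of different motifs did not occur in these 3 windows.

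Counts per library totalled 19498516 to 27174006 in control, 20827733 to 29491895 in NASH and 44680345 to 60117806 in NASH-CH rats, so that the NASH-CH libraries were deeper without overlap, and their depth and their condition cannot be told apart. Small non-coding SRP and 7SK RNAs took 10.54% to 12.62% of counts in NASH-CH, below every control (15.16% to 21.04%) and NASH rat (13.93% to 16.16%), and with small non-coding RNA genes left out of the fit 1, 3 and 1 members were called in the 3 comparisons, as with them. Levels are given as CPM, the counts per 1000000 counts of a library, with totals scaled by TMM factors. They are not per gene length, so levels of different genes are not compared. The hepatocyte markers Alb, Apoa1, Ttr, Serpina1, Cps1, Hnf4a and Cyp2e1 summed to at least 54400 CPM in every rat. Alb made up most of that sum, with means of 106000, 74900 and 71000 CPM in control, NASH and NASH-CH rats. NASH-CH rat 5 stood apart from the other NASH-CH rats. It had the lowest summed level of its group for the hepatocyte list (54400 CPM), for 9 stellate cell markers (143 CPM) and for 8 sinusoidal endothelial markers (207 CPM), and the highest for 5 cholangiocyte markers (39.4 CPM). Within NASH-CH it also had the highest level of Pdgfa, Pdgfb, Pdgfd, Pdgfra, Pdgfrb and Nrp1 and the lowest of Vegfa, Flt1 and Kdr. Values without it are given below for Pdgfa, Pdgfb, Pdgfd, Pdgfrb and Kdr. For NASH-CH against control without it, the log2 fold change was 0.49 for Pdgfra (limma-voom adjusted p = 0.00872) and 0.22 for Nrp1 (adjusted p = 0.177). It was 0.12 for Flt1 (adjusted p = 0.501) and 0.06 for Vegfa (adjusted p = 0.851), whose value with all rats was -0.01.

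Pdgfc (ENSRNOG00000010695) was the PDGF ligand that changed in both models. In control rats it ran from 1.57 to 5.02 CPM (median 2.45), in NASH rats from 7.44 to 12.2 CPM (median 9.87) and in NASH-CH rats from 4.18 to 7.86 CPM (median 5.55). All 6 NASH rats lay above all 6 controls, whereas 4 of 6 NASH-CH rats did. Pdgfc rose 3.32-fold in NASH (log2 fold change 1.73, SE 0.26, limma-voom adjusted p = 0.00316), where it ranked 9th of 12904 genes by p, and 1.94-fold in NASH-CH (0.95, SE 0.26, adjusted p = 0.0166). NASH-CH rats lay lower than NASH rats, with 5 of 6 below every NASH rat (log2 fold change -0.78, SE 0.20, adjusted p = 0.0325). The increase in NASH-CH missed the threshold without control rat 4, which had the lowest level of its group (0.76, adjusted p = 0.0532). The decrease from NASH to NASH-CH missed it without NASH rat 3, 4 or 5 or NASH-CH rat 1 or 2, with adjusted p up to 0.0867, and its log2 fold change then lay between -0.75 and -0.70.

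Pdgfd (ENSRNOG00000029148), a ligand of the beta receptor that proteases activate after secretion, was higher in cirrhosis. It ran from 0.785 to 1.56 CPM in control (median 1.23), from 0.936 to 1.76 CPM in NASH (median 1.25) and from 1.56 to 6.01 CPM in NASH-CH rats (median 2.29). All NASH-CH rats lay above all controls, although the lowest NASH-CH rat and the highest control rat have the same rounded value, and control and NASH rats overlapped. Pdgfd rose 2.24-fold in NASH-CH (log2 fold change 1.16, SE 0.37, limma-voom adjusted p = 0.0359), and in NASH the log2 fold change was 0.16 (SE 0.43, adjusted p = 0.869). Between NASH-CH and NASH rats the log2 fold change was 1.00 (SE 0.34, adjusted p = 0.113), which did not pass, whereas edgeR (1.10, adjusted p = 0.0375), DESeq2 (1.10, adjusted p = 0.0105) and limma with sample quality weights (0.84, adjusted p = 0.0460) called it. NASH-CH rat 5 had the highest level, 6.01 CPM, against 2.92 CPM for the next rat, and without it the log2 fold change was 0.85 against control (adjusted p = 0.0143) and 0.69 against NASH (adjusted p = 0.0754). The call was lost without any of control rats 1 to 5 or NASH-CH rat 2, with adjusted p from 0.0562 to 0.0920, while its log2 fold change stayed between 1.04 and 1.23. Each control library held 19 to 39 Pdgfd counts.

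Pdgfa and Pdgfb, the classical ligands, did not pass limma-voom in any comparison. Pdgfa (ENSRNOG00000001312) ran from 0.446 to 1.26 CPM in control (median 0.953), from 0.891 to 2.29 CPM in NASH (median 1.26) and from 0.801 to 3.47 CPM in NASH-CH rats (median 1.65). In each model 4 of 6 rats lay above every control, and the rest lay within the control range. NASH rats 4 and 6, counted as above, have the same rounded value as the highest control rat, 1.26 CPM. The log2 fold change was 0.59 in NASH (95% confidence interval -0.45 to 1.63, limma-voom adjusted p = 0.525) and 0.86 in NASH-CH (-0.07 to 1.80, adjusted p = 0.195). In NASH-CH Pdgfa passed by DESeq2 (0.98, adjusted p = 0.0419) but not by edgeR (0.99, adjusted p = 0.0665), and without NASH-CH rat 5, its highest rat, the limma value was 0.59 (adjusted p = 0.309). Pdgfb (ENSRNOG00000017197), with 3 to 12 counts per control library, was the least detected member. It ran from 0.108 to 0.463 CPM in control (median 0.275), from 0.134 to 0.461 CPM in NASH (median 0.302) and from 0.344 to 1.38 CPM in NASH-CH rats (median 0.422). Only NASH-CH rat 5 lay above every control, and the next NASH-CH rat stood at 0.435 CPM. The log2 fold change in NASH-CH was 1.05 (95% confidence interval 0.09 to 2.02, adjusted p = 0.124) and 0.66 without that rat (adjusted p = 0.179). At this depth an increase of Pdgfb of the size seen for Pdgfd lay within the interval.

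**Figure D1:**
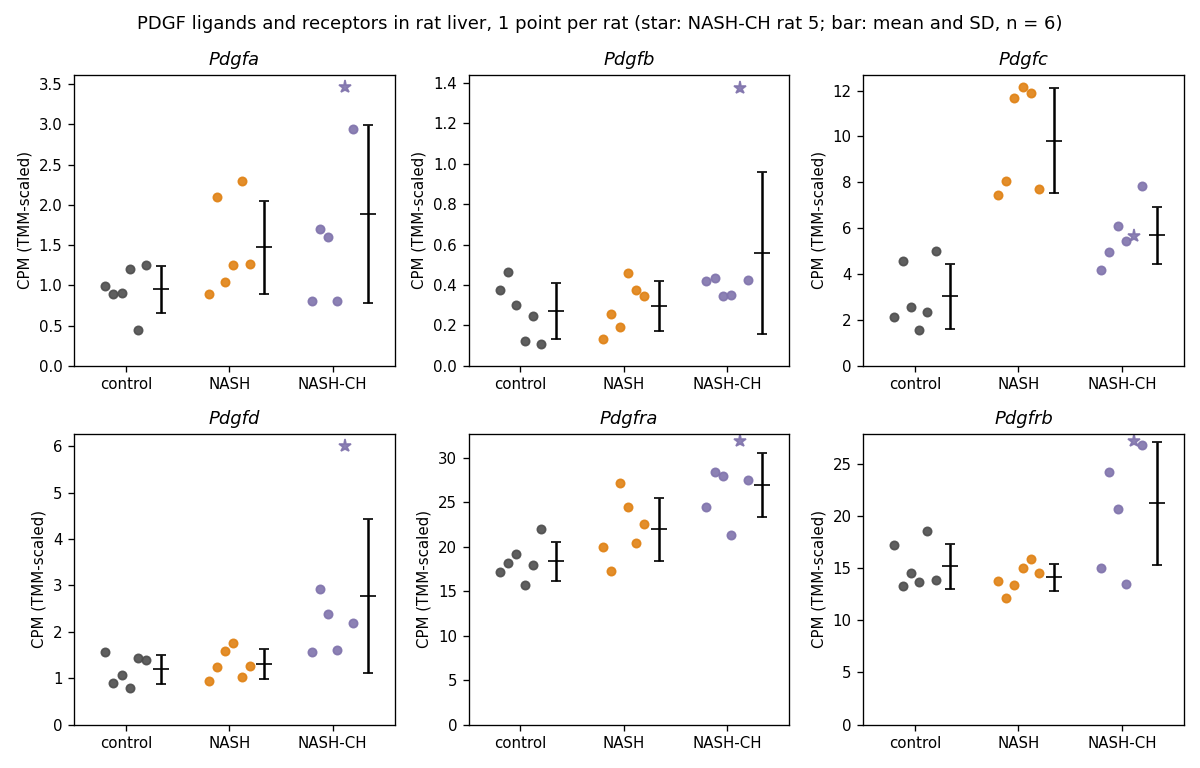
TMM-scaled CPM (linear axis from 0) of the 4 PDGF ligands and 2 receptors in each rat by group, with the group mean and SD beside the points (n = 6) and NASH-CH rat 5 as a star. Pdgfc is highest in NASH rats (7.44 to 12.2 CPM), and Pdgfd and Pdgfb have their highest points, 6.01 and 1.38 CPM, in NASH-CH rat 5.

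Among the receptors, Pdgfra (ENSRNOG00000002244), which marks quiescent and activated stellate cells and fibroblasts, was higher in NASH-CH. It ran from 15.7 to 22.0 CPM in control (median 18), from 17.2 to 27.2 CPM in NASH (median 21.5) and from 21.4 to 31.9 CPM in NASH-CH rats (median 27.7). A single NASH-CH rat, rat 4, lay within the control range, at 21.4 CPM. Pdgfra rose 1.46-fold in NASH-CH (log2 fold change 0.54, SE 0.12, limma-voom adjusted p = 0.00461), with adjusted p no larger than 0.0150 in the 18 fits that each left out 1 rat. In NASH the log2 fold change was 0.25 (SE 0.12, adjusted p = 0.222), and between the models it was 0.29 (SE 0.12, adjusted p = 0.187).

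Pdgfrb (ENSRNOG00000018461), the receptor of PDGF-BB and PDGF-DD, had wide values in NASH-CH. It ran from 13.3 to 18.5 CPM in control (median 14.2), from 12.2 to 15.9 CPM in NASH (median 14.1) and from 13.5 to 27.2 CPM in NASH-CH rats (median 22.4). NASH-CH rats 2, 3, 5 and 6 lay above every control and every NASH rat, and rats 1 and 4 lay within the control range. The log2 fold change was 0.44 in NASH-CH against control (SE 0.16, limma-voom adjusted p = 0.0644) and 0.53 against NASH (SE 0.16, adjusted p = 0.0657), short of the threshold in both cases. Both passed without NASH-CH rat 1 (0.53, adjusted p = 0.0276, and 0.62, adjusted p = 0.0292) and without NASH-CH rat 4 (0.56, adjusted p = 0.0123, and 0.66, adjusted p = 0.0103). Without NASH-CH rat 5, the highest, they moved the other way (0.36, adjusted p = 0.116, and 0.45, adjusted p = 0.128). Both passed by edgeR's quasi-likelihood test (adjusted p = 0.0362 and 0.0324) and by DESeq2 (adjusted p = 0.0219 and 0.00885). In NASH the log2 fold change was -0.09 (SE 0.16, adjusted p = 0.790).

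Vegfa (ENSRNOG00000019598) did not pass limma-voom, edgeR or DESeq2 in any comparison. It ran from 47.2 to 110 CPM in control (median 79.7), from 74.7 to 105 CPM in NASH (median 90.0) and from 56.5 to 103 CPM in NASH-CH rats (median 75.8). The 3 groups overlapped, and the controls alone spanned the values of every NASH and NASH-CH rat. The log2 fold change was 0.22 in NASH (95% confidence interval -0.16 to 0.60, limma-voom adjusted p = 0.510) and -0.01 in NASH-CH (-0.40 to 0.38, adjusted p = 0.981). A change of Vegfa up to 1.52-fold in NASH and 1.31-fold in NASH-CH thus lay within the intervals. RSEM counts were summed over transcripts, so Vegfa isoforms and the soluble forms of Flt1 and Nrp1 were not separated.

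Kdr (ENSRNOG00000046829), the main signalling receptor, had its lowest levels in NASH-CH. It ran from 59.4 to 92.0 CPM in control (median 78.8), from 77.0 to 94.9 CPM in NASH (median 87.6) and from 36.7 to 81.9 CPM in NASH-CH rats (median 61.6). In NASH-CH, 3 of 6 rats lay below every control and 5 of 6 below every NASH rat, with NASH-CH rat 5 lowest at 36.7 CPM. For Kdr in NASH-CH the log2 fold change was -0.35 against control (SE 0.15, limma-voom adjusted p = 0.115) and -0.53 against NASH (SE 0.15, adjusted p = 0.0556), and neither passed. Without NASH-CH rat 5 these values were -0.22 (adjusted p = 0.219) and -0.41 (adjusted p = 0.0745), so that the first moved by more than 1.5 times. The difference from NASH passed without control rat 4 (-0.53, adjusted p = 0.0471) and without NASH-CH rat 6 (-0.62, adjusted p = 0.0198). Of 11 alternative settings 4 called it. They were DESeq2 (-0.51, adjusted p = 0.0204) and limma with sample quality weights (-0.47, adjusted p = 0.0206), without a filter on low counts (-0.53, adjusted p = 0.0259) or with the replicate block. The other 7 did not, among them edgeR (-0.50, adjusted p = 0.0631).

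Flt1 (ENSRNOG00000000940) did not pass any of these tools either. It ran from 16.5 to 26.0 CPM in control (median 21.2), from 23.3 to 30.2 CPM in NASH (median 25.7) and from 20.2 to 24.5 CPM in NASH-CH rats (median 22.0). In NASH 3 of 6 rats lay above every control, and the NASH-CH rats lay within the control range. The log2 fold change was 0.33 in NASH (SE 0.11, limma-voom adjusted p = 0.0903), 0.10 in NASH-CH (SE 0.11, adjusted p = 0.572) and -0.23 between the models (SE 0.11, adjusted p = 0.259). Nrp1 (ENSRNOG00000010744), which binds VEGF-A and semaphorins beside Kdr, ran from 11.9 to 19 CPM in control (median 15.5), from 15.6 to 20.2 CPM in NASH (median 17.6) and from 16.4 to 22.3 CPM in NASH-CH rats (median 18.3). Its groups overlapped, with 2 NASH and 3 NASH-CH rats above every control. For Nrp1 the log2 fold change was 0.19 in NASH (SE 0.11, adjusted p = 0.328) and 0.27 in NASH-CH (SE 0.11, adjusted p = 0.101).

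**Figure D2:**
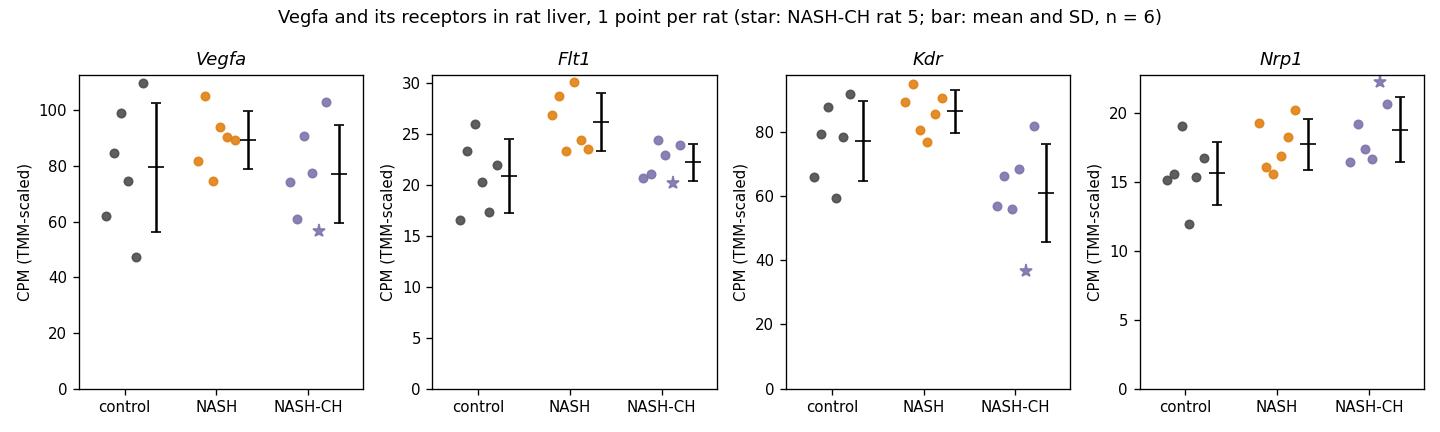
TMM-scaled CPM (linear axis from 0) of Vegfa, Flt1, Kdr and Nrp1 in each rat by group, with the group mean and SD beside the points (n = 6) and NASH-CH rat 5 as a star. Vegfa overlaps across the 3 groups, and Kdr in NASH-CH reaches down to 36.7 CPM.

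Counted over the members, 1 of 10 passed between NASH and control rats, as higher, where 3.12% of the 12904 genes tested passed and 1.58% passed as higher. Between NASH-CH and control rats 3 of 10 passed, each of them higher, where 17.0% of genes passed and 8.38% passed as higher. Between the models 1 of 10 passed, as lower, where 4.20% of genes passed and 2.39% passed as lower. The groups did not overlap for 1 of 10 members in NASH against control (Pdgfc) and 1 of 10 in NASH-CH against control (Pdgfd), against 3.16% and 7.11% of all genes. Between the models they overlapped for 10 of 10, against a background of 3.46% of genes without overlap. The median log2 fold change of the members was 0.22 in NASH and 0.49 in NASH-CH, and over all genes tested it was 0.01 in each. The count in NASH-CH was 1 without control rat 4. Between the models it was 0 without NASH rat 3, 4 or 5 or NASH-CH rat 2, and 2 without control rat 4 or NASH-CH rat 4 or 6. The background share in NASH ranged from 0.983% (without control rat 3) to 7.55% (without control rat 6) when 1 rat was left out. NASH and NASH-CH were compared with the same controls. Counts by other tools and at an unadjusted p, given below, have larger backgrounds. Of the 12904 genes, edgeR called 652 in NASH, 2449 in NASH-CH and 617 between the models, and DESeq2 1228, 2841 and 949. By limma-voom, an unadjusted p of 0.0455 ranked 2650th in NASH, 0.0341 ranked 3544th in NASH-CH and 0.0418 ranked 2081st between the models.

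**Figure D3:**
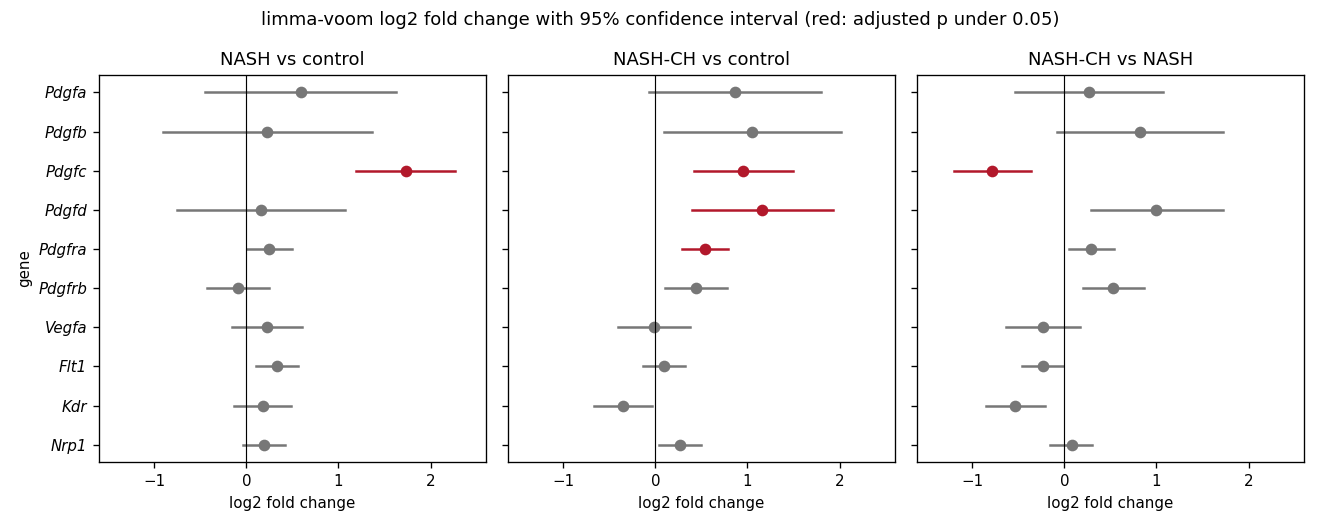
Limma-voom log2 fold change (point) and 95% confidence interval (line) of the 10 genes in the 3 comparisons, in red where the adjusted p was under 0.05. Pdgfc is red in all 3 comparisons, at 1.73, 0.95 and -0.78, and Pdgfd and Pdgfra are red in NASH-CH against control.

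Ratios of 2 genes within a rat, taken from log2 CPM with a prior count of 2, were compared for 3 pairs in 3 comparisons. Two-sided exact permutation tests were used, adjusted over the 9 tests. The prior count draws ratios of low counts, as with Pdgfa, toward equal levels, so they differ from plain ratios of counts. The Flt1 to Kdr ratio, decoy over signalling VEGF receptor, ran from 0.221 to 0.343 in control, from 0.260 to 0.392 in NASH and from 0.293 to 0.551 in NASH-CH rats. It was 1.38-fold higher on average in NASH-CH than in control rats (difference 0.46 on the log2 scale, exact permutation p = 0.0216, adjusted p = 0.0779) and did not pass. Without NASH-CH rat 5, which had the highest ratio, the difference was 0.35 (exact permutation, adjusted p = 0.117). The Pdgfc to Pdgfa ratio, of 2 ligands of the alpha receptor, ran from 1.30 to 4.92 in control, from 3.76 to 10.7 in NASH and from 1.62 to 6.35 in NASH-CH rats. Its log2 difference was 1.18 in NASH against control (exact permutation p = 0.0130, adjusted p = 0.0779) and -0.99 in NASH-CH against NASH (exact permutation p = 0.0260, adjusted p = 0.0779). The Pdgfrb to Pdgfra ratio ran from 0.633 to 1.03 in control, from 0.495 to 0.776 in NASH and from 0.616 to 0.976 in NASH-CH rats. Its log2 difference was -0.35 in NASH against control (exact permutation p = 0.0390, adjusted p = 0.0877) and -0.11 in NASH-CH against control (exact permutation p = 0.478, adjusted p = 0.538). The log2 difference of the Pdgfc to Pdgfa ratio in NASH-CH against control was 0.19 (exact permutation, adjusted p = 0.669). The remaining 3 tests, Flt1 to Kdr in NASH against control, and Flt1 to Kdr and Pdgfrb to Pdgfra between the models, had adjusted p of 0.295, 0.144 and 0.169 (exact permutation). None of the 9 tests thus passed after adjustment, and 4 had an unadjusted p under 0.05.

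**Figure D4:**
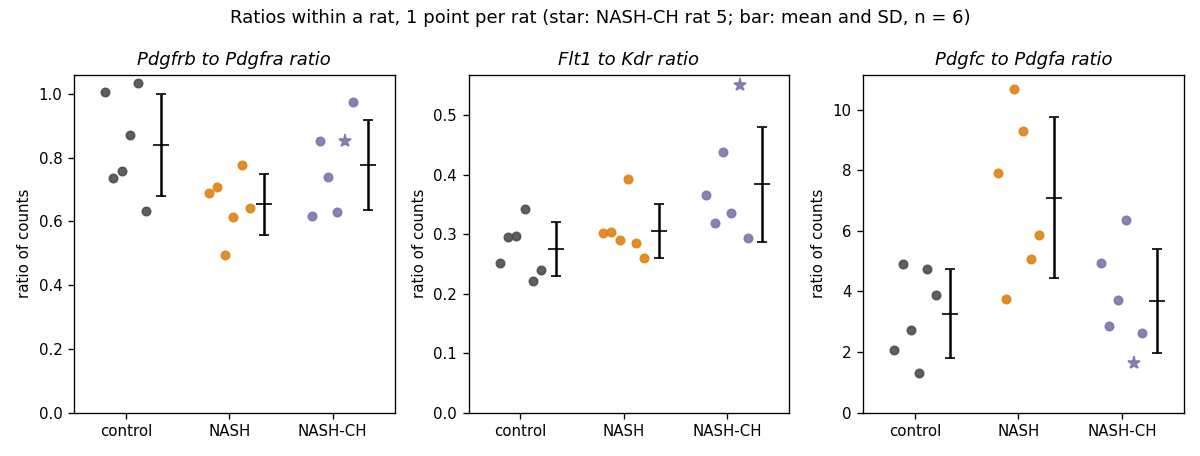
Ratio of 2 genes within each rat, from log2 CPM with a prior count of 2 (linear axis from 0), by group. The group mean and SD stand beside the points (n = 6), and NASH-CH rat 5 is a star. The Flt1 to Kdr ratio reaches 0.551 in NASH-CH rat 5, and the Pdgfc to Pdgfa ratio reaches 10.7 in NASH rats.

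The other ligands and receptors of the VEGF family, a list of 7 genes of which 5 were tested, held 1 gene that rose in NASH-CH, Vegfd, where 8.38% of all genes did. Vegfd, a ligand of the lymphatic receptor Flt4, ran from 0.108 to 0.347 CPM in control (median 0.269), from 0.210 to 0.887 CPM in NASH (median 0.412) and from 0.852 to 2.77 CPM in NASH-CH rats (median 1.41). All NASH-CH rats lay above all controls, and the lowest of them lay below the highest NASH rat. Control levels this low rest on few counts, as for Pdgfb, which at 0.108 to 0.463 CPM held 3 to 12 counts per control library. A gene this low in control can pass the filter on low counts through the group where it is high. The lack of overlap is thus no separate support. For Vegfd the log2 fold change was 2.70 in NASH-CH against control (SE 0.52, limma-voom adjusted p = 0.00179), 1.86 against NASH (SE 0.43, adjusted p = 0.0169) and 0.84 in NASH against control (SE 0.62, adjusted p = 0.459). Flt4, Nrp2, Vegfb and Vegfc did not pass in any comparison, with log2 fold changes in NASH-CH of 0.20, 0.30, -0.35 and 0.08 (adjusted p = 0.545, 0.139, 0.332 and 0.656). Flt4 was nearest in NASH, with a mean of 27.7 CPM against 17.7 CPM in control (0.67, adjusted p = 0.0763). Pgf, a ligand of Flt1, averaged under 0.1 CPM in each group and was not tested, and 1 symbol on the list, Figf, is an older name of Vegfd. The median log2 fold change of the list was 0.21 in NASH and 0.20 in NASH-CH. None of the 5 genes passed in NASH by limma or edgeR, 1 had an unadjusted p under 0.05, and 1 passed by DESeq2.

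Angiopoietins and Tie receptors, the parallel system of vessel stability, gave no call among 4 tested genes in any of the 3 comparisons by limma, edgeR or DESeq2, and 0, 1 and 2 of them had an unadjusted p under 0.05. Tek, the receptor of Angpt1 and Angpt2, had a log2 fold change of -0.24 in NASH-CH (SE 0.11, limma-voom adjusted p = 0.158). Without NASH-CH rat 5, which had the lowest Tek level of its group, the value was -0.15 (adjusted p = 0.297). Of 9 tested endothelial genes known to respond to VEGF, 1 rose in NASH and 2 in NASH-CH, where 1.58% and 8.38% of all genes rose, and their median log2 fold change was 0.59 and 0.27. Unc5b, a netrin receptor of tip cells, rose in both models, by 1.59 in NASH (adjusted p = 0.0301) and by 2.20 in NASH-CH (SE 0.37, adjusted p = 0.000557) on the log2 scale. Cxcr4, a chemokine receptor also carried by leukocytes, rose in NASH-CH by 1.69 on the log2 scale (SE 0.40, adjusted p = 0.00780), and its level in NASH-CH rat 5, 14.9 CPM, was far above the next, 6.18 CPM. Without that rat the log2 fold change of Cxcr4 was 1.42 in NASH-CH (adjusted p = 0.00334), and it passed in NASH as well (1.13, adjusted p = 0.0401). Apln, the ligand of the apelin receptor, had a log2 fold change of 0.99 in NASH-CH (adjusted p = 0.0689). Dll4, a Notch ligand of tip cells named after its values were seen, fell by 0.84 on the log2 scale between the models (adjusted p = 0.0458), the single gene of the list that passed there. It was not called by edgeR, and without NASH-CH rat 5 the value was -0.64 (adjusted p = 0.0755).

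Genes that sense oxygen or respond to hypoxia, which acts on Vegfa transcription, were counted in the same fits. Of 8 tested oxygen sensing genes 0 passed in NASH by limma or edgeR, against 2 by DESeq2 and 3 with p under 0.05 before adjustment. In NASH-CH 1 of the 8 passed by limma, 3 by edgeR and 3 by DESeq2. The limma call was Egln2, a prolyl hydroxylase that marks HIF subunits for degradation, which fell by 0.53 on the log2 scale (SE 0.11, limma-voom adjusted p = 0.00290). Epas1, the HIF-2 alpha subunit, averaged 66.6 CPM in control, 99.1 CPM in NASH and 106 CPM in NASH-CH rats. Its log2 fold change in NASH-CH was 0.65 (adjusted p = 0.0511), and 0.80 without NASH-CH rat 5 (adjusted p = 0.0151). For Egln3 the log2 fold change in NASH-CH was 1.40 (adjusted p = 0.109), and 0.97 without that rat (adjusted p = 0.114). Of 9 tested hypoxia target genes 0 passed in NASH by limma or edgeR, against 2 by DESeq2 and 5 with p under 0.05 before adjustment. Of the 9, in NASH-CH, 1 rose and 2 fell, where 8.38% and 8.60% of all genes did. Ndrg1 rose by 0.90 on the log2 scale (adjusted p = 0.0170), whereas the glycolytic enzyme Ldha fell by 0.67 (adjusted p = 0.0234) and Pdk1, which inhibits pyruvate dehydrogenase, fell by 0.64 (adjusted p = 0.0376). The value of Pdk1 was -0.47 (adjusted p = 0.0634) without NASH-CH rat 5. Between the models none of the 8 and none of the 9 genes passed by limma or edgeR, 0 and 1 passed by DESeq2, and 0 and 1 had an unadjusted p under 0.05.

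Proteases that activate PDGF ligands, with the coreceptor Lrp1 and the receptor-like gene Pdgfrl, made a list of 6 tested genes. None of the 6 passed in any comparison by limma or edgeR. DESeq2 called 1 in NASH-CH against control and 0 in the others, and 2, 1 and 0 of the 6 had an unadjusted p under 0.05. In NASH-CH the log2 fold change of Plat, the protease that activates PDGF-CC, was 0.69 (SE 0.32, limma-voom adjusted p = 0.154), and its level in NASH-CH rat 5, 24.5 CPM, was far above the next, 7.97 CPM. Without that rat the value of Plat was 0.36 (adjusted p = 0.201). For Furin, which cleaves PDGF-A and PDGF-B precursors, it was 0.24 (adjusted p = 0.268) with all rats and 0.38 without NASH-CH rat 5, where it passed (adjusted p = 0.0187), and for Lrp1, which binds the beta receptor, 0.35 (adjusted p = 0.381). Among 21 tested adaptors and signal transducers of these receptors, 5 rose in NASH-CH and 0 fell, where 8.38% and 8.60% of all genes did, and the list's median log2 fold change was 0.20. They were Ptprj, a receptor phosphatase that dephosphorylates PDGF and VEGF receptors (0.41, adjusted p = 0.00392), the adaptor Nck2 (0.81, adjusted p = 0.0120), the kinase Src (0.56, adjusted p = 0.0241), the catalytic subunit Pik3cb (0.36, adjusted p = 0.0358) and the phospholipase Plcg1 (0.31, adjusted p = 0.0370), of which the last pair was named after its values were seen. In NASH 0 of the 21 passed by limma, 1 passed by edgeR, 4 by DESeq2, and 6 had an unadjusted p under 0.05. Between the models 0 passed by limma, edgeR or DESeq2, and 1 had an unadjusted p under 0.05.

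Markers of the cells that carry these receptors moved in part with the members, and their part in the members' values was not tested. In whole liver, fewer cells of a type and less RNA per cell cannot be told apart. Of 8 tested hepatic stellate cell markers, 1 rose and 1 fell in NASH, where 1.58% and 1.54% of all genes did, and 2 rose and 2 fell in NASH-CH, where 8.38% and 8.60% did. Rgs5, a gene of pericytes and stellate cells, rose in NASH (log2 fold change 1.5, limma-voom adjusted p = 0.0110) and NASH-CH (1.87, adjusted p = 9.81e-05), while Lrat, the enzyme that stores retinol esters, fell by 0.59 in NASH (adjusted p = 0.0260) and by 0.68 in NASH-CH (adjusted p = 0.00251). Desmin (Des) rose in NASH-CH (0.65, adjusted p = 0.00468), where Colec11, named after its values were seen, fell by 0.50 (adjusted p = 0.0145). Between the models 1 stellate marker rose and 2 fell, where 1.81% and 2.39% of all genes did, and these calls held without NASH-CH rat 5. Des rose by 0.56 (adjusted p = 0.0218) and Colec11 fell by 0.54 (adjusted p = 0.0254). Ecm1, also named after its values were seen, fell by 0.81 (adjusted p = 0.0489). The summed level of the stellate list was 230 to 318 CPM in control, 266 to 370 CPM in NASH and 143 to 270 CPM in NASH-CH rats. Without NASH-CH rat 5 the NASH-CH sums ran from 234 to 270 CPM, within the control range. Of 7 tested myofibroblast markers, 2 rose in NASH-CH against control, where 8.38% of all genes rose, and 3 against NASH, where 1.81% did. In NASH 0 passed by limma, against 1 by edgeR, 1 by DESeq2 and 2 at an unadjusted p under 0.05. By edgeR and by DESeq2, 4 of the 7 passed in NASH-CH against control, where 2449 and 2841 of 12904 genes did. Against NASH 4 and 5 of them passed, where 617 and 949 of all genes did. The limma count without NASH-CH rat 5 was 2 against control and 1 against NASH, where the calls of Col1a1 (0.81, adjusted p = 0.0672) and Col3a1 (0.44, adjusted p = 0.0803) were lost. Tagln rose by 0.97 in NASH-CH (adjusted p = 0.00444) and Col1a1 by 1.02 (adjusted p = 0.0186), while Acta2, at 0.87 (adjusted p = 0.0758) and a mean of 2.56 CPM, did not pass. The summed level of the list was 235 to 325 CPM in control, 192 to 269 CPM in NASH and 247 to 390 CPM in NASH-CH rats. Col3a1 made up most of that sum, with means of 236, 197 and 278 CPM. No marker of either list that was tested averaged 0.

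Beside Kdr and Flt1, 8 tested markers of sinusoidal endothelium gave no call against control by limma or edgeR. DESeq2 called 1 of them in NASH and 0 in NASH-CH, and 2 and 1 had p under 0.05 before adjustment. Their summed level was 305 to 391 CPM in control, 344 to 386 CPM in NASH and 207 to 386 CPM in NASH-CH rats, with NASH-CH rat 5 lowest and the other NASH-CH rats at 305 CPM or more. In NASH-CH the values were -0.45 for Oit3 (log2 fold change, SE 0.18, limma-voom adjusted p = 0.102), -0.24 for Fcgr2b (adjusted p = 0.196) and -0.20 for Mrc1 (adjusted p = 0.277). Between the models Stab1, a scavenger receptor named after its values were seen, fell by 0.69 on the log2 scale (adjusted p = 0.0318), and without NASH-CH rat 5 the value was -0.59 (adjusted p = 0.0552). Of 7 tested markers of vascular or capillarized endothelium, 3 rose in NASH-CH, where 8.38% of all genes did. Vwf, stored by vascular endothelium, rose by 1.13 (adjusted p = 0.00245), the tight junction gene Cldn5 by 1.69 (adjusted p = 0.0361) and Cd34 by 0.96 (adjusted p = 0.0398) on the log2 scale. Cldn5 was low, at 0.0386 to 0.359 CPM in control and 0.262 to 1.48 CPM in NASH-CH rats. Its fold change thus rests on few control counts, and such a gene can pass the filter through the group where it is high. Cd34 did not pass without NASH-CH rat 5 (0.80, adjusted p = 0.0585). In NASH 0 of these 7 passed by limma, edgeR or DESeq2 and 1 had an unadjusted p under 0.05, and between the models 0 passed and 3 had one. The median log2 fold change in NASH-CH was -0.18 for the sinusoidal list and 0.09 for the vascular list.

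Platelets, a known source of PDGF-BB, were followed by 5 markers of which 2 were tested, and these differed in direction in NASH-CH. Pf4 rose by 2.73 (limma-voom adjusted p = 0.00264) and Itga2b fell by 0.66 (adjusted p = 0.0118) on the log2 scale. Pf4 was low, at 0.0386 to 0.561 CPM in control and 0.524 to 1.39 CPM in NASH-CH rats. Its control levels, and so its fold change, rest on few counts. The list's summed level overlapped between the groups (5.31 to 11.7 CPM over all rats). Itga2b made up most of that sum, with means of 8.76, 6.74 and 5.61 CPM in control, NASH and NASH-CH rats. The sum thus says little about Pf4. Of 7 macrophage markers 1 fell in NASH, Marco (-2.78, adjusted p = 0.0168), where 1.54% of all genes fell, and 5 fell in NASH-CH, where 8.60% did, among them Marco (-2.15, adjusted p = 0.00568), Csf1r (-0.46, adjusted p = 0.00635) and Cd163 (-0.48, adjusted p = 0.0304). Without NASH-CH rat 5, 3 fell in NASH-CH, 2 of them in common with the 5, and Cd163 did not pass (-0.41, adjusted p = 0.0586). Of 7 hepatocyte markers 1 rose and 1 fell in NASH, where 1.58% and 1.54% of all genes did, and 1 rose and 3 fell in NASH-CH, where 8.38% and 8.60% did. Apoa1 fell by 0.66 (adjusted p = 0.0107) and Ttr by 0.76 (adjusted p = 0.0174) in NASH-CH, whereas Cyp2e1 rose by 0.98 (adjusted p = 0.0181). Of 5 cholangiocyte markers 3 were tested, and 0 passed against control in either model by limma. By edgeR and by DESeq2, 0 of the 3 passed in NASH, where 0 had p under 0.05 before adjustment. In NASH-CH each of these tools called 1, and 1 had such a p. Between the models Spp1 rose by 1.61 on the log2 scale (adjusted p = 0.0153).

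Across rats, Pdgfd moved with both PDGF receptors. Over the 18 rats, Pearson's r of log2 CPM was 0.82 between Pdgfd and Pdgfra and 0.81 between Pdgfd and Pdgfrb. With group means removed, r was 0.67 for each pair, and without NASH-CH rat 5 it was 0.63 and 0.59. Vegfa moved with Flt1 (r = 0.76, and 0.78 with group means removed) and less with Kdr (0.55 and 0.54). Pdgfd and Kdr ran in opposite directions over all rats (r = -0.68, and -0.48 with group means removed), but without NASH-CH rat 5 the second value was 0.06. The value for Pdgfb and Kdr likewise went from -0.46 to -0.03 without that rat. Kdr and Nrp1 changed the other way, from 0.19 with that rat to 0.72 without it, both with group means removed. These are descriptions of 45 pairs over rats that share a group and a library type, and depth differed between the groups.

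**Figure D5:**
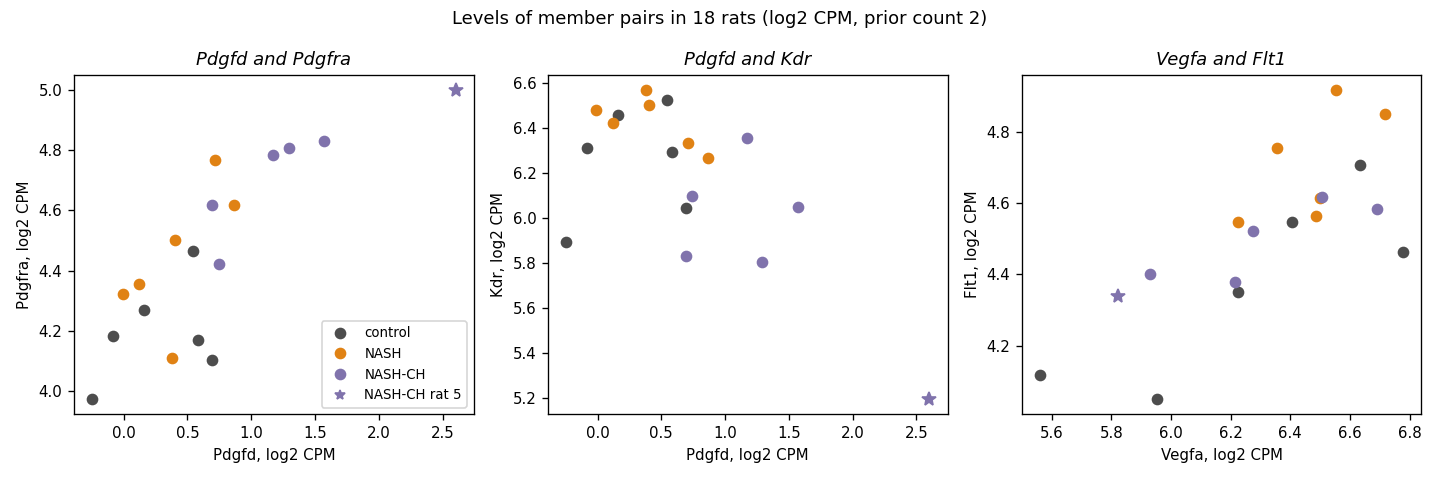
Levels of Pdgfd and Pdgfra, Pdgfd and Kdr, and Vegfa and Flt1 in the 18 rats (log2 CPM with a prior count of 2 on both axes, 1 point per rat, coloured by group, NASH-CH rat 5 as a star). Pearson's r is 0.82, -0.68 and 0.76, and in the middle panel the star lies far from the other rats.

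For each member, the genes with the most similar levels over the 18 rats were sought by Pearson's r of log2 CPM among 10376 tested genes of at least 1 CPM on average (10377 for Pdgfb, whose own mean is below that level). Pdgfc was most like Mga, Kmt2c and Sp1, genes of transcription factors and a chromatin regulator (r = 0.93, 0.92 and 0.91). Pdgfd was most like the laminin subunit Lamb1, the lysozyme Lyz2 and Dpp7 (r = 0.93, 0.93 and 0.91). Pdgfra was most like Setd7, the matrix protease Mmp2 and Kirrel (r = 0.92, 0.92 and 0.90), and Pdgfrb was most like Col1a1, Fam129b and Tyro3 (r = 0.90, 0.89 and 0.88). With group means removed, the r of Pdgfrb and Col1a1, the gene of the main collagen chain of scars, was 0.82. Vegfa was most like the immediate early gene Jun, Csrnp1 and Errfi1 (r = 0.93, 0.89 and 0.87), and its r with Jun was 0.92 with group means removed. Flt1 was most like Gadd45a, Tsc22d2 and Rhob (r = 0.86 each), and Kdr was most like Foxred2, Dusp1 and Klf13 (r = 0.87, 0.87 and 0.86). Pdgfa was most like Magee1, Ppl and Syde1 (r = 0.84, 0.81 and 0.80), Pdgfb like Ccdc80, Rcn1 and Sh3kbp1 (0.84, 0.83 and 0.82) and Nrp1 like Phka2, Rgl1 and Ahnak2 (0.84, 0.84 and 0.83). As the highest of all candidates these r are high by selection. Without NASH-CH rat 5 the r with the same genes, in the same order, were 0.72, 0.68 and 0.63 for Pdgfb. They were 0.85, 0.86 and 0.82 for Pdgfd, 0.85, 0.80 and 0.73 for Kdr and 0.94, 0.92 and 0.95 for Pdgfc.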

How the data were processed

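Whole liver RNA of 18 rats was sequenced from stranded mRNA libraries. The labels name the RNAqueous-Micro kit and the methods the miRNeasy mini kit for extraction. Per the paper's methods, the authors trimmed adapters, aligned reads to Rnor_6.0 by STAR 2-pass and quantified genes with RSEM on Ensembl release 95 (versions not given in the sources used here). The deposited tables hold RSEM expected counts, with no normalization, for 32623 genes.

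Expected counts were rounded, scaled by TMM, filtered by edgeR's filterByExpr (12904 genes left) and tested with limma-voom (limma 3.58.1, edgeR 4.0.16, R 4.3.3) in 1 fit of all 18 rats, with Benjamini-Hochberg adjustment over all tested genes and a threshold of 0.05. Each group's mean was fitted without covariates. CPM values used TMM-scaled totals, and log2 CPM a prior count of 2. Ratios of genes, taken from log2 CPM with this prior count, were compared by two-sided exact permutation of 6 against 6 rats, whose smallest p is 0.00216. Totals ran from 19498516 to 60117806 counts per rat, and such totals give counting error only. The rats were taken as separate animals, housed 2 to a cage. No 2 libraries of a group agreed within counting noise (smallest chi-square per degree of freedom 29.9).

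The 10 members and the pathway and marker lists were chosen with earlier results of these data known. Of each list, counts were given with up to 3 tested genes of largest absolute moderated t in NASH-CH against control, and all VEGF family genes. Likeness was restricted to genes with a symbol that is not a placeholder. The symbols Ca9, Crkl, Col1a2 and Pecam1 were not analysed here, and of 2 rows for Grb2 and Gp1bb the 1 with more counts was used. Scripts were tested on simulated data. As alternatives the counts were tested with edgeR (quasi-likelihood), with DESeq2 1.42.0, with other scalings, filters and weights, with the 2 groups alone, thinned NASH-CH counts, no small non-coding RNA genes, the replicate block and leaving out each rat.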

Additional observations from a re-analysis of the deposited data

Results flagged for a closer look

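In 2 of 30 member groups and 20 of 180 groups over the members, ratios and listed genes, the highest or lowest of the 6 rats lay apart from the other 5 by a share of the group's range above Dixon's 95% critical value, where chance gives about 1 in 20 groups, or 9. Of these, 9 came from NASH-CH rat 5, the rat with the lowest hepatocyte sum and the highest cholangiocyte sum of its group. Its Pdgfb level was 1.38 CPM, with 0.435 CPM for the next rat, and its Pdgfd level was 6.01 CPM, with 2.92 CPM for the next. Among listed genes it was high for Cxcr4 (14.9 CPM, next 6.18 CPM), for Egln3 (4.31 CPM, next 1.56 CPM), for Plat (24.5 CPM, next 7.97 CPM), for Krt19 (6.08 CPM, next 1.78 CPM) and for Epcam (23.4 CPM, next 10.2 CPM). It was low for Tek (12.7 CPM, next 18.2 CPM) and for Furin (87.7 CPM, next 151 CPM).

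Among NASH rats, the Flt1 to Kdr ratio of rat 4 was 0.392, with 0.304 for the next. Angpt2 was low in NASH rat 1, at 0.0891 CPM with 0.600 CPM for the next. NASH rat 2 was high for Egln3 (2.70 CPM, next 1.33 CPM) and Epcam (9.38 CPM, next 4.90 CPM), NASH rat 3 for Rgs5 (5.48 CPM, next 3.82 CPM) and NASH rat 4 for Marco (9.56 CPM, next 3.55 CPM). Among controls, Lrat was high in rat 3 (47.5 CPM, next 37.6 CPM) and Krt19 in rat 5 (2.48 CPM, next 1.78 CPM). Control rat 6 was high for Oit3 (21.6 CPM, next 15.7 CPM) and Cyp2e1 (1950 CPM, next 822 CPM), and control rat 1 for Pf4 (0.561 CPM, next 0.151 CPM). Causes of these values were not tested.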

How the results depend on the processing

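Of the 30 gene results, 295 of 320 alternative values kept their direction and side of the threshold, 4 lost the call, 17 gained it and 4 reversed. Of 540 values that left out 1 rat, 515 kept both, 12 lost the call, 6 gained it and 7 reversed. The rises of Pdgfc in NASH and of Pdgfra in NASH-CH kept their calls in all of them. The count of members called in NASH was 2 with library size only, where 865 of 12904 genes passed. It stayed at 1 when leaving out each rat. In NASH-CH it was 1 at an adjusted p under 0.01, 5 with DESeq2 and 5 with library size only. Over all genes, 849, 2841 and 3270 passed there. The member count ranged from 1 to 4 when leaving out each rat. Between the models it was 0 at 0.01 (239 of all genes) and with library size only (367 of all genes). It was 2 with edgeR (617) and 4 with DESeq2 (949). It was 3 without a filter on low counts (2649 of 20887) and 3 with sample quality weights (774). Leaving out each rat gave 0 to 2. The call of Pdgfc between the models was lost with edgeR (-0.78, adjusted p = 0.0650) and with library size only (-0.74, adjusted p = 0.119), and that of Pdgfd in NASH-CH when the 2 groups were fitted alone (1.16, adjusted p = 0.0868). Library size only moved the median of all genes to 0.23 in NASH, 0.27 in NASH-CH and 0.04 between the models. Directions of uncalled values reversed for Pdgfa between the models (-0.14 with quality weights), Pdgfrb in NASH (0.13 with library size only) and Vegfa in NASH-CH (0.00 with at least 10 counts in every sample, 0.24 with library size only). Leaving out 1 rat reversed Pdgfa between the models (-0.01, range -0.01 to 0.47), Pdgfb in NASH (-0.01, range -0.01 to 0.44), the Pdgfc to Pdgfa ratio in NASH-CH (-0.05, range -0.05 to 0.40) and Vegfa in NASH-CH (0.02 to 0.09, range -0.15 to 0.09). The causes were not tested.

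Over all genes, limma called 403, 2192 and 542 genes in NASH, NASH-CH and between the models. The count differed by more than 1.5 times with edgeR in NASH (652), DESeq2 (1228 in NASH, 949 between the models), quality weights (1509 in NASH), library size only (865 in NASH), no filter (268 and 5495 against control, 2649 between the models), the 2 groups alone (644, 1408 and 349), no small non-coding RNA genes (270 between the models) and a threshold of 0.01 (39, 849 and 239). Leaving out 1 rat gave 128 (without control 3) to 982 (without control 6) in NASH. There the count was also under 403 by more than 1.5 times without control 1, 4 or 5 (151, 151 and 178) or NASH 1, 3, 4 or 5 (233, 131, 200 and 158), and over it without NASH-CH 5 (721). Between the models it was 346 without NASH 3, and in NASH-CH it ran from 1519 to 2409. Filters of 10 counts in every sample dropped Pdgfa and Pdgfb. Refitting the listed genes without NASH-CH rat 5 was chosen after seeing the data.

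The labels give rats a number within each group and state no pairing. Deviations of same-numbered rats had a mean correlation of 0.052, 0.073 and 0.015 over 6 pairs in the 3 comparisons. The lowest of the 6 was -0.119, 0.027 and -0.074, and 2 of 6 rats correlated best with their own number in each. These values cannot settle whether same-numbered rats shared a batch or handling. With the replicate block, 1, 3 and 1 members were called, but between the models Pdgfc was lost (-0.76, adjusted p = 0.0884) and Kdr passed (-0.54, adjusted p = 0.0466). Low counts limit Pdgfb, with 3 to 12 counts in control libraries.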
